A study of Mus musculus with 2 samples.

Results

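The subunits of the 5 oxidative phosphorylation complexes were described in RNA-Seq data of kidney cells selected for Pdpn (podoplanin). Members were taken by gene symbol. They are the mRNA genes of the mitochondrial genome and the nuclear genes whose symbols begin with Nduf, Sdh, Uqcr, Cox4 to Cox8 or Atp5 in the subunit series, without symbols that carry a pseudogene suffix. This gave 102 of the 55471 gene entries in the table, which stand on 101 symbols because Atp5o has 2 gene identifiers. By annotation 98 of them were protein coding and 4 were processed pseudogenes with gene-like symbols (Ndufa11b, Ndufb4c, Ndufs6b and Cox6c2). Of the members, 13 were encoded in mitochondrial DNA and 89 in the nucleus.

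The data hold 1 library from control (Ctrl) kidneys and 1 library from VhlhKO kidneys, both from male C57BL/6J mice. VhlhKO mice are Hoxb7-Cre-GFP/+ with Vhlh loxP/loxP, so that Cre under the Hoxb7 promoter deletes Vhlh (the mouse VHL gene) in part of the tubule epithelium. Ctrl mice carry Hoxb7-Cre-GFP/+ according to the design, while 1 label of the Ctrl sample names Vhlh loxP/loxP instead. Ages are given as 12 weeks, as 8 to 12 weeks and as 10 to 12 weeks in different places, and each library was a pool of 6 mice or of 3 mice according to the section read. The cells were sorted as EpCAM-CD45-Nephrin-Pdpn+ and kept in endothelial medium for about 6 h before RNA extraction. Since each genotype has a single library, no replicate exists and nothing was tested. Every interval below covers counting error only, and the spread among mice or among pools is unknown.

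Oxidative phosphorylation is carried out in the inner mitochondrial membrane. Complexes I (NADH dehydrogenase) and II (succinate dehydrogenase) feed electrons to ubiquinone, complex III passes them to cytochrome c, complex IV (cytochrome c oxidase) hands them to oxygen, and complex V (ATP synthase) uses the proton gradient to make ATP. All but complex II combine subunits from both genomes, and the mitochondrial ones form much of the catalytic core in the membrane. Loss of VHL stabilises hypoxia-inducible factors in the cell that lost it, and several subunits have an alternative form used under low oxygen or in particular tissues.

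The VhlhKO library held 34465017 counts and the Ctrl library 31817115. A total of 15275 genes had at least 20 counts in at least 1 library and are called measured here, and 93 of the 102 members were among them. Pdpn had 2313 counts in VhlhKO against 1836 in Ctrl, and the lymphatic regulator Prox1 had 142 and 144. Of the lymphatic list 6 of 10 genes were measured. Past 2-fold higher in VhlhKO were 2 of them (33.3%, beside 1.71% of all measured genes). These were Lyve1 with 128 and 10 counts and Itga9 with 103 and 33, while Flt4 had 898 and 710. Of the endothelial list 6 of 10 genes were also measured, and 0 passed 2-fold in either direction. Pecam1 had 66 and 55 counts, Cdh5 105 and 95, and Emcn 176 and 88. The list summed to 830 and 648 counts, a ratio of 1.19 (1.07 to 1.32). The lymphatic markers Ccl21a and Mmrn1 had 0 in both and the smooth muscle actin gene Acta2 had 72718 and 69178. Vhl had 975 and 938 counts, a ratio of 0.966 (0.882 to 1.06). The deleted stretch is exon 1 in tubule cells, and the sort removed EpCAM+ cells, so this gene-level count does not check the labels.

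At the level of mRNA the complexes were dominated by the mitochondrial genome. The 13 mitochondrial members took 1351289 counts in VhlhKO against 1260080 in Ctrl, that is 3.92% (exact 95% Clopper-Pearson interval 3.91 to 3.93) and 3.96% (3.95 to 3.97) of all counts. The 89 nuclear members, of which 80 were measured, together took 173755 and 170587 counts, or 0.504% and 0.536%. Mitochondrial counts were therefore 7.78 times the nuclear counts in VhlhKO and 7.39 times in Ctrl. In TPM (the authors' normalised value per unit of gene length, used here for every level compared between genes) the sums differed 10.1 times and 9.59 times.

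mt-Co1, the catalytic subunit of complex IV, had more counts than any other gene in both libraries, with 630479 in VhlhKO and 602228 in Ctrl. It made up 46.7% and 47.8% of the mitochondrial mRNA counts. mt-Cytb, the mitochondrial subunit of complex III, was next among the members with 251454 and 225641 counts. The NADH dehydrogenase subunits mt-Nd5 (168347 and 153086), mt-Nd1 (126821 and 119141), mt-Nd4 (86368 and 80089) and mt-Nd2 (82595 and 75359) followed. These 6 genes held 99.6% of the mitochondrial mRNA counts in each library, with TPM from 6520 to 43821. However, mt-Co2, mt-Atp6, mt-Co3, mt-Nd3 and mt-Nd4l have near-identical nuclear copies, described below, and the treatment of reads with several matches is not stated. These shares, and the mitochondrial to nuclear ratios above, therefore describe assigned counts and may not be those of mRNA.

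Among nuclear members the highest levels belonged to complex V and complex IV. Atp5b, the catalytic beta subunit of ATP synthase, stood at 801 TPM in VhlhKO and 873 TPM in Ctrl. Atp5a1, its alpha partner, stood at 618 and 633 TPM. In complex IV Cox8a had 706 and 768 TPM and Cox6a1 had 515 and 542 TPM. The highest nuclear members of the remaining complexes were lower, with Ndufa2 of complex I at 243 and 273 TPM, Sdhd of complex II at 267 and 273 TPM, and Uqcr10 of complex III at 222 and 245 TPM.

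Subunits that sit in 1 complex spanned a wide range of TPM. In complex I the lowest measured member was Ndufb2, a small subunit of the membrane arm, at 2.38 TPM in VhlhKO and 3.24 TPM in Ctrl. In complex V it was Atp5l, the g subunit, at 14.5 and 12.4 TPM, and in complex IV it was Cox7a1 at 3.89 and 1.05 TPM. Sdhb at 28.2 and 32.5 TPM and Uqcrc1 at 83.6 and 86 TPM were the lowest of complexes II and III. TPM depends on the transcript length assigned to a gene, which the sources used here do not list but which counts and TPM together imply. Atp5l had 900 and 708 counts, more than Atp5e with 434 and 504, yet Atp5e stood at 25.7 and 32.3 TPM. The low place of Atp5l by TPM thus rests on its assigned length. The order of the members was nearly the same in both libraries: across the 93 measured members the log2 TPM values had Pearson's r of 0.993 and Spearman's rho of 0.988, beside 0.988 and 0.990 across all measured genes, as a description over genes, which are not replicates.

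**Figure D1:**
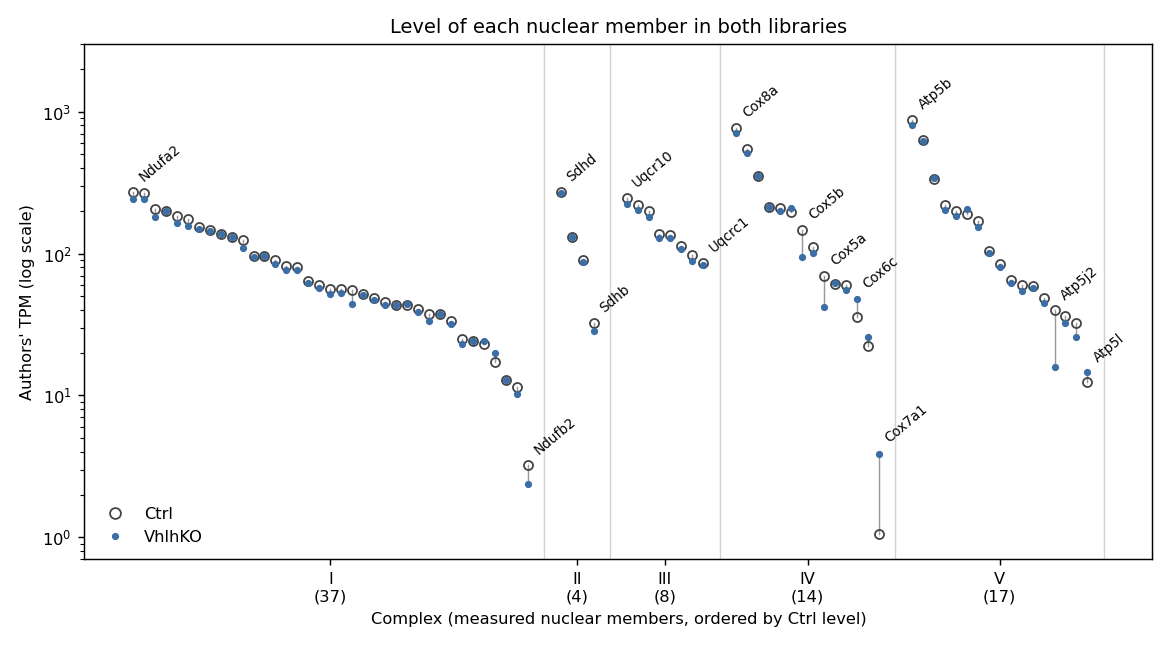
TPM of each of the 80 measured nuclear members (vertical axis, log scale) in Ctrl (open circles) and VhlhKO (filled points), grouped by complex and ordered by Ctrl level, with 1 library per genotype. In Ctrl the levels run from 873 TPM for Atp5b to 1.05 TPM for Cox7a1. The widest gaps between genotypes include those of Atp5j2, Cox5a, Cox5b, Cox7a1, Ndufb2 and Cox6c.

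Complex-wide, VhlhKO and Ctrl had nearly the same subunit mRNA, with the nuclear members slightly lower in VhlhKO. Log2 ratios compare VhlhKO with Ctrl after TMM scaling and the addition of 0.5 CPM (counts scaled to a library of fixed size, as TPM is, but without gene length). Its median was -0.06 over the 93 measured members and -0.0007 over all 15275 measured genes. The interquartile range of the members was 0.127 log2 units, against 0.225 for all genes. Since members are abundant, the same was computed for genes with at least 100 counts, where the range was 0.112 for 77 nuclear members and 0.192 for 12250 genes.

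Few members passed a rule of size. On the lower side their share was above that of all genes at 2-fold and 1.5-fold, from 1 and 3 members, and below it at 1.2-fold. Counts this small do not set the members apart from all genes. At 2-fold 0 members were higher in VhlhKO, where 1.71% of all measured genes were, and 1 (Atp5j2, 1.08%) was lower, where 0.524% were. At 1.5-fold 2 were higher (mt-Atp6 and Cox7a1), or 2.15% beside 4.75% of all genes. On the lower side were 3 (Atp5j2, Cox5a and Cox5b), or 3.23% beside 1.82% of all genes. At 1.2-fold 5 were higher, or 5.38% beside 13.3% of all genes, and 6 were lower, or 6.45% beside 8.63%. The members added at 1.2-fold were mt-Co3, mt-Nd3 and Cox6c on the higher side, and Ndufb2, Ndufs6 and Atp5e on the lower side.

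The small shift was one-sided among the nuclear members. Of the 80, 62 (77.5%) had a log2 ratio below 0 and 18 above, and their median was -0.07. Of all measured genes 50.2% were below 0, but it was 83.3% of the 18 measured TCA cycle and pyruvate dehydrogenase genes described below. It was 68.8% of 16 genes of general mitochondrial content and 63.5% of 74 measured mitochondrial ribosome genes. In the lists of assembly factors it ran from 50% for complex II to 75% for complex V. Among genes with at least 100 counts it was 80.5% of nuclear members and 51.2% of all genes. The summed counts of all 89 nuclear members gave a ratio of 0.946 (0.940 to 0.953). Over all 93 members the counting interval of the ratio lay below 1 for 30, or 32.3%, where 17.3% of all measured genes did so, and above 1 for 10, or 10.8%, where 19% did so. The mitochondrial members had a median of 0.03 and a summed ratio of 0.996 (0.994 to 0.999), so that the mitochondrial to nuclear ratio of counts was 1.05 times as high in VhlhKO as in Ctrl.

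Marker genes of other kidney cell types also differed between the libraries, in both directions. Past 2-fold, 0.524% of all measured genes were lower in VhlhKO and 1.71% higher. Of 13 measured marker genes of the proximal tubule, an epithelium rich in mitochondria, 7 (53.8%) were past 2-fold lower, and 0 higher. Among them Slc34a1 had 0 and 51 counts and Fbp1 0 and 42, whereas Lrp2 had 1528 and 1041, Gatm 689 and 385, Cubn 220 and 177, and Ass1 1231 and 1184. Slc22a6 was at 0 in both, and the whole list summed to 116 CPM against 136 CPM in Ctrl. Of the fibroblast and pericyte markers, 5 of 9 measured genes (55.6%) were past 2-fold higher and 0 lower, with sums of 3660 and 2748 CPM. CD45+ and Nephrin+ cells had been gated out by the sort. Macrophage markers summed to 102 and 47.7 CPM, with Lyz2 at 2007 and 522 counts, Csf1r at 279 and 307 and Cd163 at 5 and 38. Podocyte markers summed to 753 and 503 CPM, with Synpo at 15240 and 10169 counts and Podxl at 5206 and 1240, while Nphs1, the gene of Nephrin, had 44 and 77. Whether these mRNAs came from other cells or from the sorted cells themselves cannot be told apart, and their part in the members' values was not tested. In a bulk library fewer cells of a type and less RNA per cell cannot be told apart either.

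**Figure D2:**
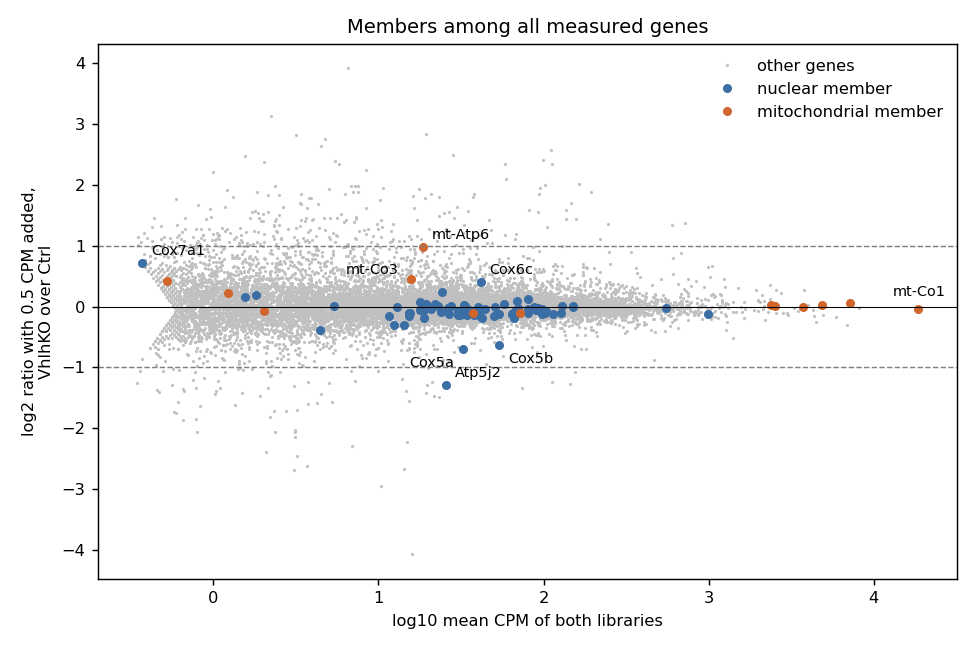
Mean CPM of both libraries (horizontal axis, log10) against the log2 ratio of VhlhKO over Ctrl with 0.5 CPM added (vertical axis) for the 15275 measured genes, with nuclear members in blue, mitochondrial members in orange, other genes in grey and dashed lines at 2-fold. Most members lie in a narrow band about 0, Atp5j2 is past the lower line, and mt-Atp6 at 0.98 lies just inside the upper line.

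Complex I, the entry point for electrons from NADH, held 44 of the measured members and had a median log2 ratio of -0.05. Its 40 nuclear genes, unmeasured ones included, gave summed counts of 40397 in VhlhKO against 39389 in Ctrl, a ratio of 0.953 (0.940 to 0.966). Of the 37 measured, 28 (75.7%) were below 0, beside 50.2% of all measured genes.

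Within complex I the Ndufb genes, most of which encode accessory subunits of the membrane arm, stood lowest. All 10 measured Ndufb genes had log2 ratios below 0, where 50.2% of all measured genes did, and their median was -0.13. With the unmeasured Ndufb4c they gave a summed ratio of 0.914 (0.889 to 0.940). Ndufb2 was the lowest of the complex, with 129 counts in VhlhKO against 162 in Ctrl and a log2 ratio of -0.39. Ndufs6, a zinc-binding accessory subunit of the peripheral arm, had 382 and 442 counts, for a log2 ratio of -0.30. The highest nuclear value of the complex belonged to Ndufs6b, a processed pseudogene with 67 and 53 counts, and the highest among protein-coding ones to Ndufs4 with 627 and 555 counts, for a log2 ratio of 0.07. The Ndufa genes (13 measured) had a median of -0.04, with 11 (84.6%) below 0.

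Complex II, which is also an enzyme of the TCA cycle and has no mitochondrial subunit, differed little. The flavoprotein gene Sdha had 5164 counts in VhlhKO against 4836 in Ctrl, and the membrane anchors Sdhc and Sdhd had 2720 and 2587, and 3156 and 2986. Their log2 ratios of -0.01, -0.03 and -0.03 had counting intervals that included no change. The iron-sulfur subunit gene Sdhb had 608 and 647 counts, a log2 ratio of -0.19 and a count ratio of 0.873 (0.780 to 0.977). The summed ratio of the complex was 0.979 (0.954 to 1.005).

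All 8 measured nuclear genes of complex III had log2 ratios below 0, from -0.14 to -0.03, where 50.2% of all measured genes were below 0. The core protein gene Uqcrc2 had 2182 counts in VhlhKO against 2234 in Ctrl and was the lowest, with Uqcr10 and Uqcr11, which encode small subunits, at the same rounded value. The other core protein gene, Uqcrc1, had 3323 and 3163 counts and was the highest. The Rieske iron-sulfur protein gene Uqcrfs1 had 2644 and 2652 counts, for a log2 ratio of -0.11. Their summed ratio was 0.937 (0.916 to 0.959), while the mitochondrial mt-Cytb of the same complex was at a ratio of 1.035 (1.030 to 1.041).

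In complex IV the interquartile range was 0.212 log2 units, against 0.123 in complex V, and Cox5a and Cox5b were lower and Cox7a1 higher past 1.5-fold. The SD, which single members weigh on more, was 0.342 in complex IV and 0.401 in complex V, which holds Atp5j2 and mt-Atp6. Cox5a, a matrix-side subunit that joins Cox4 early in assembly, had 852 counts in VhlhKO against 1293 in Ctrl, or 42.2 and 69.2 TPM. Its ratio was 0.612 (0.561 to 0.668), a log2 ratio of -0.70. Cox5b, a zinc-binding subunit on the matrix side, had 1441 and 2079 counts, or 94.5 and 147 TPM, with a ratio of 0.644 (0.602 to 0.689) and a log2 ratio of -0.63. Taken as a pair they had 2293 and 3372 counts, a ratio of 0.632 (0.599 to 0.666), so that each was lower by about the same factor. They lie on different chromosomes, Cox5a at chr9:57521274-57532426 and Cox5b at chr1:36691449-36693681 (GRCm38), both on the plus strand.

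Cox6c, a small membrane-spanning subunit at chr15:35925886-35938246 on the minus strand, was higher. It had 1633 counts in VhlhKO against 1139 in Ctrl, a ratio of 1.33 (1.23 to 1.44) and a log2 ratio of 0.41. Cox7a1, the form typical of heart and skeletal muscle, had 20 and 5 counts, a ratio of 3.72 with a wide interval of 1.35 to 12.7, and a log2 ratio of 0.72. The 10 other measured nuclear genes of the complex ran from -0.13 for Cox6b2 to 0.15 for the pseudogene Cox6c2, and with the unmeasured genes of the complex they summed to a ratio of 0.978 (0.959 to 0.996). Cox4i1, the ubiquitous form of subunit 4, had 5227 and 4825 counts, for a log2 ratio of 0.01.

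Complex V held Atp5j2, the 1 member past 2-fold. This gene encodes the f subunit of the membrane part of ATP synthase and lies at chr5:145183698-145192062 on the minus strand. It had 506 counts in VhlhKO against 1168 in Ctrl, or 15.9 and 39.7 TPM. The ratio was 0.403 (0.362 to 0.447) and the log2 ratio -1.28. The neighbouring gene Ptcd1 on the same strand had 736 and 698 counts and a ratio of 0.980 (0.882 to 1.09). No other nuclear member of complex V was past 1.5-fold.

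The rest of ATP synthase was close to the other complexes. The catalytic Atp5b had 32610 counts in VhlhKO against 32906 in Ctrl and a log2 ratio of -0.12, and Atp5a1 had 18614 and 17664 and a log2 ratio of -0.03. The ring of c subunits is encoded by Atp5g1, Atp5g2 and Atp5g3, which make the same mature protein and had log2 ratios of -0.12, -0.13 and -0.12. Their counts were 2112 and 2131 for Atp5g1, 878 and 892 for Atp5g2, and 3241 and 3270 for Atp5g3, so all 3 were shifted alike. Atp5e, the epsilon subunit of the rotor, had 434 and 504 counts, for a log2 ratio of -0.31. Atp5l had 900 and 708 counts and the highest nuclear log2 ratio of the complex at 0.24, but 44.6% of its 150-base windows also occur in another annotated gene, mainly the processed pseudogene Gm10221 with 785 and 654 counts. The nuclear genes of the complex summed to a ratio of 0.940 (0.931 to 0.949).

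**Figure D3:**
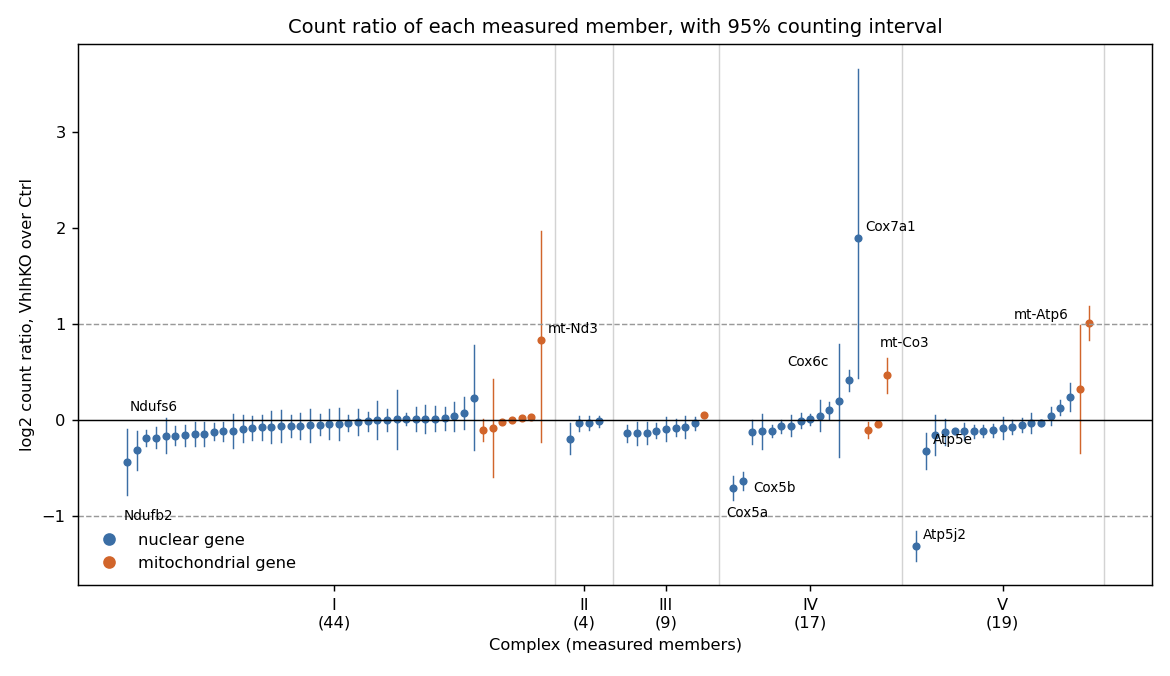
Log2 count ratio of VhlhKO over Ctrl for the 93 measured members (points, no CPM added) with exact 95% counting intervals (vertical lines), by complex, with nuclear genes in blue and mitochondrial genes in orange and dashed lines at 2-fold. Of the intervals 53 include no difference, while Atp5j2, Cox5a and Cox5b lie clearly below and Cox6c, Cox7a1, mt-Co3 and mt-Atp6 above.

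Tissue-restricted and hypoxia-linked forms were nearly absent. Cox4i2, the form of subunit 4 that is raised by low oxygen, had 5 counts in VhlhKO against 6 in Ctrl, which was 0.188% and 0.244% of the summed TPM of Cox4i1 and Cox4i2. Ndufa4l2, a target of hypoxia-inducible factor 1 and a marker of clear-cell renal carcinoma, had 8 and 3 counts, below the count minimum, beside 1016 and 995 for Ndufa4. The muscle form Cox6a2 had 3 and 5 counts. Cox7b2, Cox8b and Cox8c had 0 counts in both libraries, as did the second Atp5o identifier, and with a count of 0 up to 3 counts remain possible in each library. The pseudogenes Ndufa11b and Ndufb4c had 1 and 2, and 7 and 7 counts.

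Cox6b2, a form of subunit 6b known from testis, was the exception. It had 1080 counts in VhlhKO against 1096 in Ctrl, and took 33.7% and 34.8% of the summed TPM of Cox6b1 and Cox6b2. Cox6b1 itself had 1358 and 1315 counts. Cox7a1 took 6.57% and 1.71% of the summed TPM of Cox7a1 and Cox7a2, the ubiquitous form, whose counts were 502 and 506. The balance of forms was therefore nearly equal in both libraries for subunit 6b, and rested on 20 and 5 counts for subunit 7a. The other ubiquitous forms Cox6a1 (3474 and 3382 counts), Cox7b (2441 and 2117) and Cox8a (4200 and 4226) had log2 ratios of -0.07, 0.10 and -0.11. Cox7a2l, counted here also among the modulators of supercomplexes, had 3004 and 2803 counts and stood at -0.01.

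Several mitochondrial genes have near-identical copies in the nucleus, and reads from such a pair cannot be assigned to either by sequence alone. A stretch of chromosome 1 is annotated with 7 pseudogenes that match parts of mt-Co1, mt-Co2, mt-Atp6, mt-Co3, mt-Nd3, mt-Nd4l and mt-Nd4. The first 80 bases of mt-Atp6 (chrM:7927-8006, plus strand) and of its copy Gm10925 (chr1:24614572-24614651, minus strand, GRCm38) are shown because mt-Atp6 was the mitochondrial member with the greatest difference.
mt-Atp6: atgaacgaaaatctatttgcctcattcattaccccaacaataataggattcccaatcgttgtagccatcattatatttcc
Gm10925: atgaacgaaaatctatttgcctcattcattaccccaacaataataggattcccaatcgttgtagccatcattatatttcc
The window holds 0 differences, and the whole copy of 678 bases holds 0. The start of mt-Co3 (chrM:8607-8686, plus strand) and of its copy Gm28437 (chr1:24613892-24613971, minus strand) is likewise identical.
mt-Co3: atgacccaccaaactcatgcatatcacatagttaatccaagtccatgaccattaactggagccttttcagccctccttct
Gm28437: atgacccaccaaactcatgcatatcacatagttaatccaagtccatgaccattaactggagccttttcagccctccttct
For mt-Co1 the copy Gm29216 covers only part of the gene and has 6 differing bases of 492, all near its start. Capitals mark them in mt-Co1 (chrM:6381-6460, plus strand) and Gm29216 (chr1:24616118-24616197, minus strand).
mt-Co1: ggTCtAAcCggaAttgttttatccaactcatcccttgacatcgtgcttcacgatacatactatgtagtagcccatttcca
Gm29216: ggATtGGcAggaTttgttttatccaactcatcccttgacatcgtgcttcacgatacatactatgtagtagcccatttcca

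The 3 mitochondrial members past 1.2-fold (mt-Atp6, mt-Co3 and mt-Nd3) all have such copies. Each transcript was cut into all windows of 150 bases, the read length, and the share of windows found in another annotated gene was taken. It was 99.4% for mt-Atp6 and mt-Co2, 99.8% for mt-Co3, 98% for mt-Nd4l and 97% for mt-Nd3, and these 5 genes stood at 3.88 to 390 TPM. It was 59.2% for mt-Nd4, 23.6% for mt-Co1, and 0% for mt-Cytb, mt-Nd1, mt-Nd2, mt-Nd5, mt-Nd6 and mt-Atp8. Of the genes at 0%, mt-Nd6, the light-strand gene, stood at 248 TPM in VhlhKO and 268 TPM in Ctrl, and mt-Atp8 had 47 and 35 counts. Sequence outside annotated genes was not searched, so 0% does not show that a gene has no nuclear copy. mt-Atp8 lies between mt-Co2 and mt-Atp6, which both have copies in the chromosome 1 stretch. The sources used here do not say how the counting step treated reads with several matches, and its part in these levels was not tested.

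mt-Atp6, the a subunit that forms the proton channel of ATP synthase, had 849 counts in VhlhKO against 391 in Ctrl. Its count ratio was 2.02 (1.79 to 2.28) and its log2 ratio with 0.5 CPM added was 0.98, just inside the 2-fold rule. Its copy Gm10925 was given 466 and 510 counts, but reads of this identical pair cannot be assigned to either gene by sequence. mt-Co3, a core subunit of complex IV, had 627 and 422 counts, a ratio of 1.38 (1.22 to 1.57) and a log2 ratio of 0.45, and its copy Gm28437 had 468 and 323. mt-Nd3 had 23 and 12 counts, for a log2 ratio of 0.42, with a counting interval of 0.850 to 3.93 for its ratio, and its copy Gm28438 had 107 and 93.

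The other mitochondrial members were close to no difference, except mt-Atp8, which had few counts. The 6 abundant genes had log2 ratios of -0.04 for mt-Co1, 0.05 for mt-Cytb, 0.03 for mt-Nd5, -0.02 for mt-Nd1, 0.00 for mt-Nd4 and 0.03 for mt-Nd2. mt-Co2, the copper-bearing core subunit of complex IV, had 2372 and 2370 counts, for a log2 ratio of -0.10, and mt-Nd6 had 1239 in each library and a log2 ratio of -0.10. mt-Nd4l had 68 and 67 counts, and mt-Atp8, which overlaps mt-Atp6, had 47 and 35. For mt-Atp8 the count ratio was 1.25 (0.788 to 1.99), and the log2 ratio with 0.5 CPM added was 0.23. Where mitochondrial genes overlap (mt-Atp8 with mt-Atp6, mt-Nd4l with mt-Nd4) reads in the overlap cannot be told apart. The 5 genes with at least 95% of windows shared summed to a ratio of 1.12 (1.07 to 1.18), and the other 8 to 0.996 (0.994 to 0.999).

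**Figure D4:**
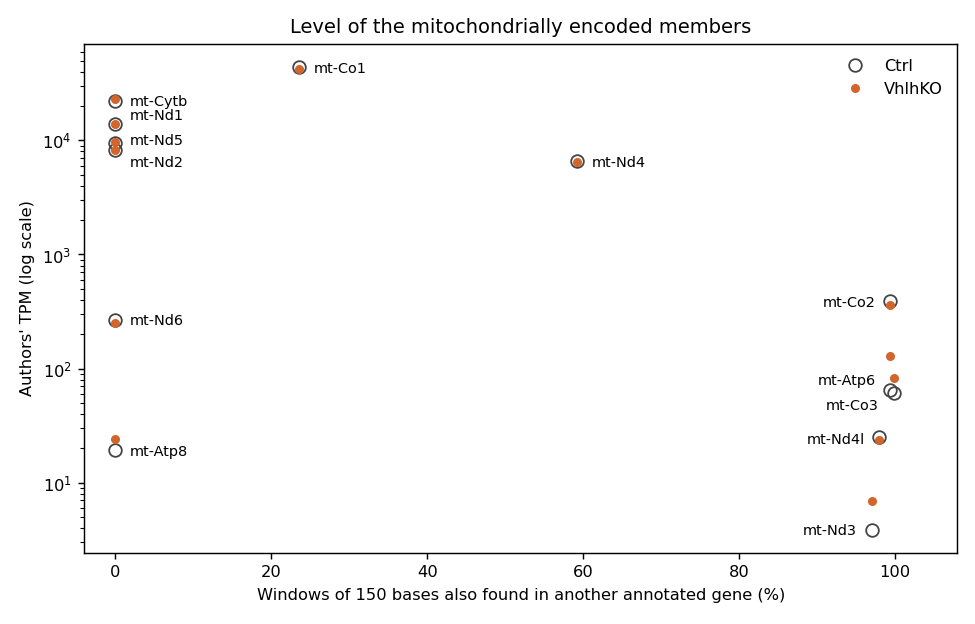
Share of 150-base windows also found in another annotated gene (horizontal axis, %) against the authors' TPM (vertical axis, log scale) for the 13 mitochondrial members in Ctrl (open circles) and VhlhKO (filled points), 1 library each. The 5 genes at the right, with at least 95% of windows shared, lie at or below 390 TPM, and the 6 abundant genes lie between 6520 and 43821 TPM at 59.2% or less.

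The nuclear members with the greatest differences did not have such copies to the same extent. Atp5j2, Cox5a, Cox5b, Cox6c and Cox7a1 had 0% of 150-base windows in another gene. With windows of 75 bases the share was 1% for Atp5j2, 21.7% for Cox5a, mainly with the overlapping antisense transcript Gm26631 (8 and 3 counts), 17.2% for Cox5b, mainly with Gm11273 (370 and 313 counts), and 10.7% for Cox6c, mainly with Cox6c2 (57 and 46 counts). The libraries were stranded, but the sources used here do not say whether the counting used the strand.

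Promoters of the nuclear members were searched for 3 short sequences known from this gene class or from hypoxia, on both strands, in RefSeq windows (GRCm38.p6) from 250 bases before to 50 bases after each start. Of 88 nuclear symbols, 68 matched, with 73 windows. The ETS core CGGAAG, bound by the factor NRF2 (GABP) among others, stood in 29 windows (39.7%), beside 16.9% of all 32851 windows. The motif GCGCATGCGC of the factor NRF1, a regulator of nuclear genes for mitochondrial proteins that binds as a dimer to paired TGCGC repeats in opposite orientation, stood in 5 (6.85%), beside 0.971%. The hypoxia element ACGTG stood in 18 (24.7%), beside 19.6%. The 5 NRF1 matches are printed in 30 bases each, with the motif in capitals, since this motif is the rarest of the set: Atp5g2 (chr15:102671070-102671099, minus strand), Atp5k (chr5:108434430-108434459, minus), Cox6a1 (chr5:115349101-115349130, minus), Ndufa11 (chr17:56717692-56717721, plus) and Uqcrc1 (chr9:108936668-108936697, plus).
Atp5g2: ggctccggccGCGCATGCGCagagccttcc
Atp5k: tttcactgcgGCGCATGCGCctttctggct
Cox6a1: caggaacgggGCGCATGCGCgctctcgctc
Ndufa11: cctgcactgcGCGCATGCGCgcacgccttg
Uqcrc1: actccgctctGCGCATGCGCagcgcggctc
These 5 genes had log2 ratios of -0.13, 0.04, -0.07, -0.09 and -0.03. Of the members past 1.5-fold, Cox5a had an ETS match 54 bases and an ACGTG match 112 bases before the start, Atp5j2 had an ETS match 122 bases before it, and Cox5b had ETS matches at 2 and 38 bases after it. A match is a description of the sequence and not a binding site.

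Genes that build or serve the complexes differed little as well. Assembly factors were counted past 1.5-fold in neither direction, with 0 of 15 measured for complex I, 0 of 4 for complex II, 0 of 6 for complex III, 0 of 21 for complex IV and 0 of 4 for complex V, beside the 4.75% and 1.82% of all genes given above. Their median log2 ratios were -0.04, 0.01, -0.04, -0.03 and -0.07. For complex I the extremes were Timmdc1 and Ndufaf2 at -0.11 and -0.08 and Ndufaf8 and Ndufaf6 at 0.11 and 0.52, the last from 60 and 34 counts. For complex II they were Sdhaf4 and Sdhaf1 at -0.14 and -0.02 and Sdhaf2 and Sdhaf3 at 0.05 and 0.15, and for complex III Uqcc2 and Lyrm7 at -0.11 and -0.07 and Uqcc1 and Ttc19 at 0.05 and 0.19. For complex IV they were the haem A enzyme Cox10 at -0.26 and the copper chaperone Cox11 at -0.24, with Pet100 and Coa4 at 0.09 and 0.13. For complex V they were Fmc1 and Tmem70 at -0.33 and -0.09 and Atpaf2 and Atpaf1 at -0.04 and 0.13.

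The parts of the chain that the symbol rule leaves out lay near the nuclear members. Cyc1 of complex III, with 3067 counts in VhlhKO against 3162 in Ctrl, stood at -0.15. Cytochrome c itself, Cycs, had 2651 and 2692 counts and stood at -0.13, the ATP synthase inhibitor Atpif1 at -0.10, and the acyl carrier subunit Ndufab1 at 0.10. Genes for ubiquinone synthesis and other electron supply (15 measured, 0 past 1.5-fold) had a median of -0.02, with Coq7 and Dhodh lowest at -0.41 and -0.25 and Coq8a and Pdss2 highest at 0.13 and 0.21. The 18 measured TCA cycle and pyruvate dehydrogenase genes had a median of -0.05 and 0 past 1.5-fold, from Suclg2 and Idh2 at -0.24 and -0.23 to Pdha1 and Mdh2 at 0.06 and 0.09.

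Genes that express the mitochondrial genome or mark mitochondrial content differed as little. The 23 measured genes of mitochondrial transcription, its regulators and RNA processing had a median of -0.05 and 0 past 1.5-fold. Lowest were the nuclear receptor Esrrg at -0.48 (86 and 118 counts) and the coactivator Ppargc1a at -0.45 (133 and 174 counts), and highest were Mterf2 and Ppargc1b at 0.26 and 0.31. Among 16 genes of general mitochondrial content the median was -0.05, from Timm23 and Opa1 at -0.11 and -0.10 to Tomm20 and Hspe1 at 0.11 and 0.19. Of 74 measured mitochondrial ribosome genes 0 were higher and 2 (2.70%) were lower past 1.5-fold, with a median of -0.04. Of all measured genes 4.75% were higher and 1.82% lower.

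Outside the complexes and the cell type markers, the listed genes past 1.5-fold were Mrps21, Mrps22 and Ucp2. Mrps21, a small ribosomal subunit protein, had 567 counts in VhlhKO against 1014 in Ctrl, a ratio of 0.520 (0.468 to 0.576). Mrps22 had 230 and 331 counts, for a log2 ratio of -0.60, while Mrpl55 and Mrpl42 were highest at 0.19 and 0.43. Among 10 measured modulators of supercomplexes and of the response to hypoxia the carrier Ucp2 was the 1 gene past 1.5-fold. That is 10%, beside 1.82% of all measured genes lower past 1.5-fold. Ucp2 had 4734 and 7176 counts, for a log2 ratio of -0.70. Pdk1, the kinase that inhibits pyruvate dehydrogenase and a target of hypoxia-inducible factor 1, had 434 and 502 counts and stood at -0.31, and Higd2a and Chchd2 were highest at 0.03 and 0.15.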

How the data were processed

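Poly(A)-selected, stranded libraries were sequenced from both fragment ends with reads of 150 bases. Among the tools in the submitters' processing notes are STAR and featureCounts, with GRCm38 as build and no versions; the sources used here give neither annotation release nor settings. The authors deposited raw counts of each gene, with no normalization, and TPM values, scaled by the authors to gene length and library total. The same table holds the authors' fold changes and p-values, which were not used. Totals were 34465017 counts in VhlhKO and 31817115 in Ctrl.

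TMM scaling (edgeR 4.0.16 in R 4.3.3) gave factors of 0.997 for VhlhKO and 1.003 for Ctrl. Log2 ratios had 0.5 CPM added, and genes that reached 20 counts in either library were called measured. Rules of size were 2-fold, 1.5-fold and 1.2-fold. With 1 library per genotype no test was made. Ratio intervals are exact conditional binomial (Clopper-Pearson, 95%) and cover counting error only, since PCR copies are not independent molecules. Single-gene ratios are scaled count ratios without the 0.5 CPM. Shared windows, coordinates and gene types came from GENCODE M21 (all 102 member identifiers matched) and promoters from RefSeq. Ndufa4 was counted in complex I by its name.

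The members and lists were chosen with earlier results of these data known. Named were all 13 mitochondrial mRNA genes, the extremes of ratio and TPM per complex, members past 1.5-fold, paralog pairs, all Sdh genes, members without counts, and the 2 highest and lowest of each other list; other names, such as Cox6c and the members past 1.2-fold, were chosen after their values were seen. Alternatives were scaling by totals, by DESeq2 (1.42.0) size factors and by TMM without mitochondrial genes, the authors' TPM, other added CPM and count minimums, and narrower membership. The size rule was also run on simulated Poisson counts. These hold counting error only and say nothing of the spread among mice or pools. Python 3.11.15, numpy 2.4.6, pandas 2.3.3, scipy 1.17.1 and matplotlib 3.10.9 were used.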

Additional observations from a re-analysis of the deposited data

How the results depend on the processing

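Of the summary values recomputed under the alternatives 124 kept within a set margin and 16 moved. The margin was 1.5 times for counts of members and the counting interval for shares. For medians it was the median half-width of single-gene intervals. That was 0.0754 log2 units for complex II and 0.127 for complex I, wider than their medians, so it says little about the medians. Of the values of named members 119 stayed within counting error and 7 moved, among them mt-Co1 in 3 settings and mt-Cytb in 2. Only Sdha changed sign, from -0.01 to 0.000258 with DESeq2 size factors, which is within its counting error. No alternative shifted the median of all genes by more than 0.0112 log2 units. The number of members at least 2-fold higher was 2 with the authors' TPM and 2 with 0.05 CPM added. The number at least 1.5-fold higher was 1 with 5 CPM added, 1 with a minimum of 100 counts, 1 without paralogs, non-subunits and pseudogenes, and 1 without the mitochondrial genes with shared windows, an alternative chosen after seeing the data. The number at least 1.2-fold higher was 3 with 5 CPM, 3 with a minimum of 100 counts and 2 without the genes with shared windows, and the number at least 1.2-fold lower was 3 with 5 CPM. With a higher count minimum or narrower membership fewer members enter the counts; the cause of the changes under the other settings was not tested. The mitochondrial share was 10.4% in VhlhKO and 10.5% in Ctrl of the authors' TPM, 3.66% and 3.70% of counts without overlapping genes and mt-Nd6, and 3.91% and 3.95% without the genes with shared windows. No paired analysis was possible because each genotype has 1 library, and no library could be left out for the same reason. Depth limits members with few counts: Cox7a1 and mt-Nd3 have intervals too wide to size their ratios.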

Other observations

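Among symbols that the rule leaves out as pseudogenes, Ndufb1-ps, which carries the name of a complex I subunit, had 666 counts in VhlhKO against 555 in Ctrl, a ratio of 1.11 (0.995 to 1.25). Atp5k-ps2 had 33 and 79 counts, a ratio of 0.388 (0.250 to 0.590), while Atp5k itself had 2019 and 1825 counts, for a log2 ratio of 0.04. Both were chosen after their values were seen.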
